A study of Mus musculus with 12 samples.

Results

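The regions described here are 8819 windows of 1000 bp in mouse forebrain microglia that lie between genes, at most 50000 bp from the nearest transcription start site (TSS). They were chosen from 67822 windows by annotation and site list. Both annotation columns of the deposited table call them intergenic, and the distance limit was met. The site was also listed in both the Nlrp3 knockout (KO) and the wild-type (WT) list. No tag count was used directly in the choice, but the lists are the authors' site calls for each genotype and rest on measured data. Sites listed in a single genotype were left out, which can lower the number of differences between KO and WT. The text was prepared with earlier results of these data known. The 8819 windows made up 74.5% of the 11835 intergenic windows found in both lists. Their nearest genes numbered 4565, and the median distance to the TSS was 13797 bp. The smallest distance was 1003 bp, the largest was 49992 bp, and the nearest intergenic window past the limit lay at 50081 bp. A share of 72.6%, or 6405 windows, lay upstream of the nearest TSS and 2414 lay downstream. A protein-coding gene was nearest to 7398 windows and a non-coding RNA gene to 1288. Because 1519 windows overlapped the window before them, neighbouring windows can share tags and are not independent.

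The study profiled acetylation of lysine 27 of histone H3 (H3K27ac) by chromatin immunoprecipitation and sequencing in CD11b+ microglia, which were separated from forebrain on magnetic columns. The groups were H3K27ac of microglia from mice lacking Nlrp3 (labelled NLRP3KO; the design text calls the allele a Cias1 knockout), H3K27ac of WT microglia on a C57BL/6N background, input chromatin of the KO, and input chromatin of the WT. Each of the 4 groups had 3 libraries. The labels give neither age nor sex and do not say whether libraries came from separate animals. The p-values therefore measure the spread between these libraries, which may in part be technical. WT replicate 1 alone held no tags in promoter windows of Y-linked genes, so the WT libraries did not all come from the same animals. The sort takes any cell with CD11b on its surface, a protein that other myeloid cells carry too.

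Distal regulatory elements, or enhancers, are stretches of DNA away from promoters where transcription factors bind and raise the output of genes that may lie many kilobases away. H3K27ac is deposited by the acetyltransferases CBP and p300 and marks enhancers and promoters in use. In macrophages and microglia such elements are opened by PU.1 together with AP-1, C/EBP, RUNX and interferon regulatory factors. Nlrp3 encodes the sensor of the inflammasome that activates caspase-1 and the maturation of interleukin-1 beta. The nearest gene is used below only as a name for a window, since the table holds no measurement of which gene an element acts on.

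The libraries held between 3726550 and 5028129 tags for H3K27ac and between 3287009 and 6961590 tags for input. The label of the KO was checked at the Nlrp3 promoter, which is not among the 8819 windows. The promoter window with the larger difference held 1, 0 and 16 tags in the KO H3K27ac libraries, against 180, 180 and 195 tags in the WT H3K27ac libraries. Input in that window held 0, 0 and 0 tags in the KO, against 10, 5 and 3 tags in the WT. WT H3K27ac replicate 1 held 0 tags in promoter windows of Y-linked genes, where the other 5 H3K27ac libraries held 183 to 239. WT input replicate 1 also held 0 such tags, where the other input libraries held 2 to 13. Promoter windows of 10 microglial marker genes had a median H3K27ac over input of 15.3 in the KO and 17.4 in the WT. The only promoter window of the 4 neuronal markers stood at 0.833 in the KO and 1.44 in the WT. Promoter windows of endothelial and mural markers stood at 3.07 in the KO and 2.52 in the WT. Border macrophage markers stood at 2.50 in the KO and 1.01 in the WT. The values were 1.93 in the KO and 1.75 in the WT for oligodendrocyte lineage markers, and 1.33 and 0.989 for astrocyte markers. Monocyte, neutrophil and lymphocyte markers had no promoter window. Pearson's r of log-scaled levels over the 8819 windows ran from 0.820 to 0.865 between KO libraries and from 0.813 to 0.858 between WT libraries. It ran from 0.781 to 0.872 between a KO and a WT library, a range that overlaps both.

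Sequence from a genome of the build of the table was not used here, but 213 promoter entries of the RefSeq table (GRCm38.p6, from 250 bases before to 50 bases after a start) lay whole inside members (204 distinct promoters). Of the 8819 windows, 235 held a RefSeq start, of 218 genes: 186 long non-coding RNA (lncRNA) genes and 32 protein-coding genes. The 4 promoters that follow are shown because their windows were among the most strongly acetylated windows with a RefSeq start. Each is printed 5′ to 3′ on the plus strand with matches to 6 motifs in capitals. The motifs were searched on both strands as GAGGAAGT (PU.1), TGANTCA (AP-1), TGTGGT (RUNX), TTGCNNAA (C/EBP) and CACGTG (E-box), and as the interferon-stimulated response element (ISRE). None of the spelled motifs contains another.
Gm51814, chr10:19062529-19062828, plus strand: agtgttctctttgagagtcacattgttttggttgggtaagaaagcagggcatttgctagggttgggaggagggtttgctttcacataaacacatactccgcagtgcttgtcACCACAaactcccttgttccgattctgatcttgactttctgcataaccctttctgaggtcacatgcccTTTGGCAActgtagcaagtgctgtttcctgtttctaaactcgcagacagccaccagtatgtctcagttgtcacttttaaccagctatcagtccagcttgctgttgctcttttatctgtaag
Gm36365, chr9:64771153-64771452, plus strand: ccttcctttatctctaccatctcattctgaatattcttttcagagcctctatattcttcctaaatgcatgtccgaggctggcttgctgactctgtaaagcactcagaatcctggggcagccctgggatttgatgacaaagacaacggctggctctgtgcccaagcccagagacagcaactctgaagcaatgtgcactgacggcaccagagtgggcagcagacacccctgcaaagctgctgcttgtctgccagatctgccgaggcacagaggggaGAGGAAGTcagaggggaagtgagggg
Gm30198, chr12:102451483-102451782, plus strand: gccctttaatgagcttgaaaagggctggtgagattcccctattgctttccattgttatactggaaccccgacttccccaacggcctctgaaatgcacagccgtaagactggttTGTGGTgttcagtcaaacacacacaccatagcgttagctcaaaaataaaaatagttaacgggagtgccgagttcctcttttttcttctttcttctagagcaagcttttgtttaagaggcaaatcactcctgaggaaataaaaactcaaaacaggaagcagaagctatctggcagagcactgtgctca
Gm38882, chr6:117879383-117879682, plus strand: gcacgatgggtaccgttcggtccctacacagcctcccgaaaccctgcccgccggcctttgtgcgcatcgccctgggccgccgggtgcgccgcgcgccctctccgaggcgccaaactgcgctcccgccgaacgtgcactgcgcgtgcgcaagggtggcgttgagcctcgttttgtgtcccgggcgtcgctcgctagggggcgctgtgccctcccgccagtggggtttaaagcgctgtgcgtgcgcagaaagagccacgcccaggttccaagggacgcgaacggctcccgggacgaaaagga

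The capitals mark a RUNX match on the minus strand and a C/EBP match on the minus strand in Gm51814, a PU.1 match in Gm36365 and a RUNX match in Gm30198, while Gm38882 held no match to any of the 6. The strongest 6 such windows also held the promoters of Gm32164 and Gm32552, on the minus strand and not printed, and neither had a match, so 3 of the 6 had none. All 4 are lncRNA genes that lie near a protein-coding gene: the Gm51814 window lies 47277 bp upstream of Tnfaip3, which encodes the ubiquitin-editing inhibitor A20 of the NF-kB pathway. The Gm51814 window held 547, 503 and 374 tags in the KO H3K27ac libraries, against 381, 310 and 356 tags in the WT H3K27ac libraries. The groups overlapped, and H3K27ac over input was 69.5 in the KO and 48.6 in the WT. The Gm30198 window lies 11879 bp upstream of Lgmn, the gene of the lysosomal protease legumain, and held 127, 124 and 160 tags in the KO libraries, against 135, 156 and 140 tags in the WT libraries. Among all RefSeq promoters inside members, lncRNA entries numbered 172, and 8.14% of them held the PU.1 motif, against 3.25% of 11377 lncRNA promoters elsewhere. The AP-1 motif was in 14.5% of the 172 and in 9.24% of the others, RUNX in 23.3% and 20.0%, C/EBP in 14.5% and 11.9%, the E-box in 8.72% and 5.85%, and the ISRE in 4.07% and 3.59%. Among all RefSeq promoters of any class the shares were 3.20% for PU.1, 7.81% for AP-1, 16.8% for RUNX, 10.8% for C/EBP, 7.15% for the E-box and 3.43% for the ISRE. These matches describe letters in a window and were not tested as binding sites.

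Members with a RefSeq start carried more H3K27ac than the other members. Their median H3K27ac over input was 3.60 in the KO and 3.19 in the WT, against 2.48 in the KO and 2.31 in the WT for the 8584 members without a start. Within each of the 6 H3K27ac libraries the median level of members with a start was higher, on average 1.48 times that of members without (exact two-sided sign-flip test over 6 libraries, p = 0.031, the smallest this test can give; adjusted over 4 comparisons within the members, p = 0.031). The ratio of mean levels was 1.08, and the same ratio in input was 0.928. The sign-flip p measures agreement between libraries over the same windows, not the spread between windows. Levels here are CPM, tags scaled by the total tags of a library, and the median level is coarse because most windows hold few tags. Of the 235 windows, 146 were deep enough for the genotype comparison. Of these 0 were called at an adjusted p under 0.05 by edgeR, beside 0.0595% of all windows, and 3 had an unadjusted p under 0.05, beside 4.69% of all windows.

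The windows as a whole were acetylated above input, with a long tail of strong sites and a sizeable share at the level of input. The median ratio of H3K27ac to input, computed from mean CPM plus 0.5 in each, was 2.51 in the KO and 2.33 in the WT. The ratio was at least 2 in 55.8% of windows in the KO and 54.4% in the WT, and at least 8 in 19.1% in the KO and 17.0% in the WT. It was below 1 in 23.5% of windows in the KO and 25.5% in the WT. A window held a median of 11 to 12 tags in a KO H3K27ac library and 9 to 10 tags in a WT one, against 2 to 5 tags in a KO input library and 3 to 4 in a WT one. Windows with 0 tags made up 13.9% to 21.2% of the members in a KO H3K27ac library and 14.8% to 26.3% in a WT one, where 0 tags allows up to 0.662 and 0.805 CPM in the shallowest library of each genotype (3 tags, counting error only).

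Tested window by window against the input of the same genotype, with total tags as the library size and no filter on low counts, 4282 of 8819 members (48.6%) were higher in KO H3K27ac than in KO input at an adjusted p under 0.05 (edgeR quasi-likelihood test, Benjamini-Hochberg). The share over all windows tested was 55.8%. In the WT, 4049 of 8818 members (45.9%) were higher in H3K27ac than in input, where the share over all windows was 52.5%. Members lower in H3K27ac than in input numbered 373 in the KO, beside 2.55% of all windows, and 288 in the WT, beside 2.35% of all windows. The usual filter on low counts keeps a window mainly through its H3K27ac libraries, so the counts after that filter, 3563 of 3619 members in the KO beside 99% of all windows and 3411 of 3488 in the WT beside 98.6%, are not used as support.

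The 8819 windows took a similar share of H3K27ac tags in both genotypes and a smaller share of input tags in the KO. In H3K27ac they held 5.52%, 5.34% and 4.69% of all tags in the KO libraries, against 5.56%, 4.88% and 5.31% in the WT libraries. The groups overlapped, with means of 5.18 ± 0.433% in the KO and 5.25 ± 0.343% in the WT (SD, n = 3 each; exact two-sided permutation test, p = 0.8). In input they held 0.720%, 0.656% and 0.666% of all tags in the KO libraries, against 0.732%, 0.784% and 0.812% in the WT libraries. The input groups did not overlap, with means of 0.680 ± 0.0342% in the KO and 0.776 ± 0.0406% in the WT (SD, n = 3 each), and p was 0.1 in the exact permutation test, the smallest that 3 against 3 allows. The higher ratio over input in the KO therefore stood beside a lower input level in the KO and a near-equal H3K27ac level, and the part of input in that ratio was not tested further.

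**Figure D1:**
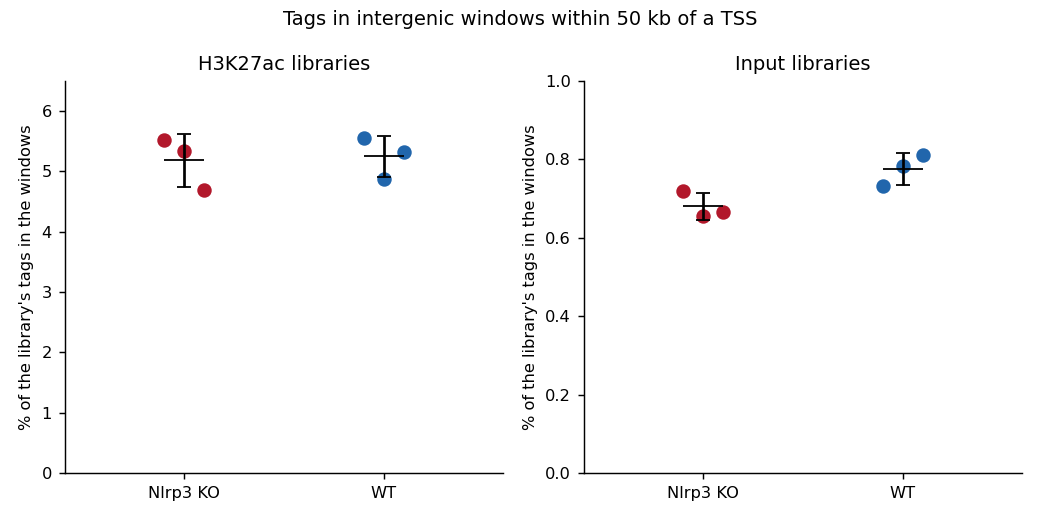
Percent of each library's tags that fall in the 8819 intergenic windows within 50 kb of a TSS, for H3K27ac (left panel) and input (right panel); points are libraries, horizontal bars are means and error bars are SD (n = 3 each). The H3K27ac groups overlap (5.18% in the KO and 5.25% in the WT), while the 3 KO input libraries lie below the 3 WT input libraries.

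The most strongly acetylated window by mean H3K27ac CPM, taking 1 window per nearest gene, lay 46748 bp upstream of Tnfaip3 (chr10:19061658-19062658), next to the Gm51814 window printed above. It held 517, 565 and 430 tags in the KO H3K27ac libraries, against 416, 322 and 324 tags in the WT H3K27ac libraries. Input held 10, 4 and 4 tags in the KO and 5, 7 and 5 tags in the WT, so the ratio over input was 62.1 in the KO and 47.5 in the WT. The groups overlapped once scaled to library totals, and the difference was not called (log2 fold change 0.28, SE 0.16, edgeR adjusted p = 0.998).

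A window 18018 bp upstream of Atf3, a stress-induced transcription factor of the ATF/CREB family, held 398, 349 and 275 tags in the KO libraries, against 311, 301 and 315 tags in the WT libraries. A window 38283 bp downstream of the Plekho2 TSS held 311, 256 and 317 tags in the KO, against 244, 291 and 340 tags in the WT. In both windows the groups overlapped, and log2 fold changes were -0.08 for Atf3 and -0.18 for Plekho2.

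Other windows of highest H3K27ac lay near Tekt3, Gm16998, 4930479D17Rik, Necap1, Gm7102 and Pisd-ps3. Their H3K27ac over input ran from 9.13 to 51.8 in the KO and from 6.08 to 54.6 in the WT, and no fold change among them passed the test. The Pisd-ps3 window lay on an unplaced contig of the build and differed from the rest in its input. It held 456, 480 and 410 H3K27ac tags in the KO and 262, 369 and 380 in the WT, beside 98, 24 and 34 input tags in the KO and 59, 52 and 51 in the WT. In all, 47 members lay on unplaced or random sequence, with 46 of them nearest Pisd-ps3, a pseudogene. Their median H3K27ac over input was 0.675 in the KO and 0.724 in the WT, and they took 4.69% to 4.73% of member tags in KO input libraries and 3.51% to 3.63% in WT input libraries. Reads from repeated sequence may be split or piled up there, so these windows are reported as uncertain. Without them the median over input was 2.54 in the KO and 2.35 in the WT.

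Windows nearest to microglial genes were more acetylated than the median member, and windows nearest to astrocyte and oligodendrocyte genes had medians close to input. Among 45 genes of homeostatic microglia, 31 had a member, and their 84 windows had a median H3K27ac over input of 7.41 in the KO and 5.78 in the WT. The strongest of them lay 5859 bp upstream of Lgmn, with 238, 196 and 217 tags in the KO, against 227, 181 and 181 tags in the WT. The groups overlapped, with a log2 fold change of -0.07. For disease-associated microglia genes, 69 windows had a median of 5.45 in the KO and 5.68 in the WT. The strongest lay 2326 bp upstream of Cd52, a small surface glycoprotein of leukocytes, with 233, 306 and 248 tags in the KO, against 256, 218 and 240 tags in the WT.

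Transcription factors of the microglial lineage had 124 windows at 4.94 in the KO and 4.19 in the WT, and immediate early genes had 137 windows at 4.37 in the KO and 3.75 in the WT. Both lists hold Fos and Atf3, so they share windows. Interferon response genes had 23 windows at 4.72 in the KO and 5.28 in the WT, led by a window 17426 bp upstream of Ifnar2, a subunit of the type I interferon receptor. Genes of NF-kB and cytokines had 85 windows at 3.47 in the KO and 3.07 in the WT. Inflammasome and interleukin-1 genes had 27 windows at 4.27 in the KO and 4.15 in the WT. The strongest of those lay 9780 bp upstream of Il1b, the cytokine that the Nlrp3 inflammasome matures, with 248, 186 and 162 tags in the KO, against 201, 220 and 137 tags in the WT. Its groups overlapped (log2 fold change -0.13, SE 0.22).

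Windows near metabolic genes had medians between 1.40 and 2.80. Of 44 genes of glutamine and glutamate metabolism and transport, 15 had a member, and the 24 windows had a median over input of 1.81 in the KO and 1.40 in the WT. The strongest lay 17040 bp upstream of Gclc, the catalytic subunit of the enzyme that starts glutathione synthesis from glutamate, with 103, 111 and 116 tags in the KO, against 57, 97 and 44 tags in the WT. The KO libraries lay above the WT libraries in tags, and the log2 fold change of 0.53 (SE 0.29) did not pass the test. Genes of the TCA cycle and pyruvate entry had 13 windows at 2.01 in the KO and 2.15 in the WT. Lipid and cholesterol genes had 36 windows at 2.63 in the KO and 2.80 in the WT, led by a window 20925 bp downstream of the TSS of Npc2, a lysosomal cholesterol carrier, with 222, 243 and 206 tags in the KO, against 106, 190 and 195 tags in the WT.

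Lists of other cells gave a check on the sorted population. Of 20 neuronal genes only Snap25 had a member, which held 3, 0 and 7 tags in the KO, against 8, 2 and 6 tags in the WT. Astrocyte genes had 17 windows at 1.17 in the KO and 1.46 in the WT, and oligodendrocyte lineage genes had 6 windows at 1.06 in the KO and 1.02 in the WT. Border macrophage genes had 18 windows at 1.87 in the KO and 1.64 in the WT, and monocyte and neutrophil genes had 13 windows at 1.68 in the KO and 1.32 in the WT. Endothelial and mural genes had 10 windows at 2.04 in the KO and 3.01 in the WT. Lymphocyte genes had 10 windows at 4.62 in the KO and 3.43 in the WT, the strongest of which lay near Klrb1c, a natural killer cell receptor, with 94, 63 and 85 tags in the KO, against 46, 73 and 93 tags in the WT. The window nearest Mog, a myelin gene, also stood above input at 7.16 in the KO and 12.01 in the WT. So did the strongest windows of the other lists with low medians. They lay nearest Glul of the astrocyte list (10.4 in the KO, 4.56 in the WT) and Kdr of the endothelial list (9.96 and 7.66). The border macrophage list had Dab2 (6.52 and 10.2), and the monocyte and neutrophil list had Csf3r (11.6 and 12.2). The source of these signals was not tested.

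**Figure D2:**
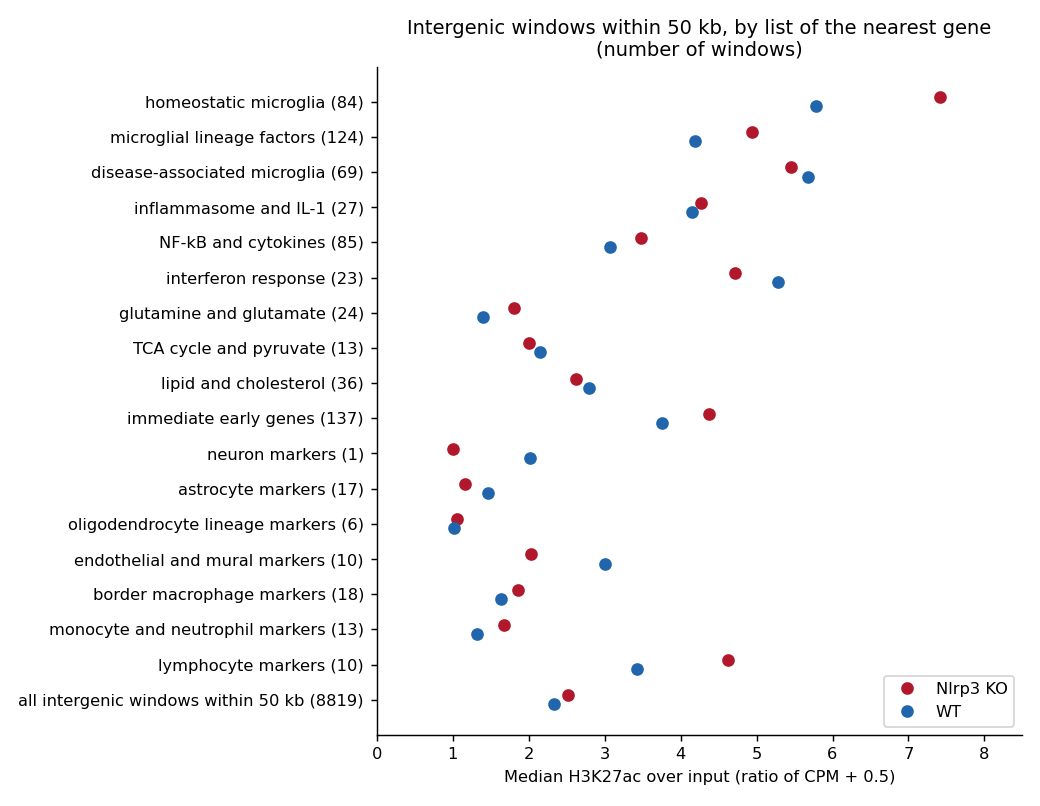
Median H3K27ac over input (ratio of mean CPM plus 0.5, horizontal axis) of the intergenic windows within 50 kb whose nearest gene is in each list (vertical axis, number of windows in brackets); red points are Nlrp3 KO and blue points WT. Homeostatic microglia genes stand highest at 7.41 in the KO and 5.78 in the WT, while astrocyte and oligodendrocyte genes lie near 1, below the 2.51 in the KO and 2.33 in the WT of all 8819 windows.

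Taken over all distances, windows upstream of the TSS had a higher median H3K27ac than windows downstream. The pattern with distance differed between the sides, a difference that was not tested. The median over input was 2.73 in the KO and 2.54 in the WT for the 1792 windows at 1 to 5 kb, and 2.49 in the KO and 2.29 in the WT for the 1687 windows at 30 to 50 kb. Within each H3K27ac library the median level of windows at 1 to 5 kb was on average 1.14 times that of the 3133 windows at 20 to 50 kb. Of the 1792 close windows 1670 were upstream, so distance is mixed with side in that ratio. Upstream, the median over input was 2.83 in the KO and 2.64 in the WT at 1 to 5 kb, and 2.57 in the KO and 2.45 in the WT at 30 to 50 kb. Downstream, it was 1.81 in the KO and 1.64 in the WT at 1 to 5 kb, and 2.37 in the KO and 2.12 in the WT at 30 to 50 kb. Upstream windows had a median level 1.19 times that of downstream windows, with a ratio over input of 2.63 in the KO and 2.45 in the WT upstream, and 2.22 in the KO and 2.07 in the WT downstream. At 20 to 30 kb the median level was 2.21 CPM on each side in the KO, and 2.33 upstream and 2.41 downstream in the WT. In the remaining classes it was higher upstream in both genotypes. By mean level, windows at 30 to 50 kb were lower upstream, at 5.67 against 6.38 CPM in the KO and 5.76 against 6.48 CPM in the WT. Windows nearest a protein-coding gene had 0.824 times the median level of windows nearest a non-coding RNA gene. Each of these 3 differences had the same direction in all 6 H3K27ac libraries (exact two-sided sign-flip tests, p = 0.031 each, adjusted over 4 comparisons p = 0.031). These p-values measure agreement between libraries over the same windows, not the spread between windows. The ratios of mean levels were smaller for distance and side, at 1.12 and 1.07, and 0.806 for gene class. In input the ratio of mean levels was 0.992 for distance, 0.933 for side (p = 0.031 by the same exact test) and 1.01 for gene class.

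**Figure D3:**
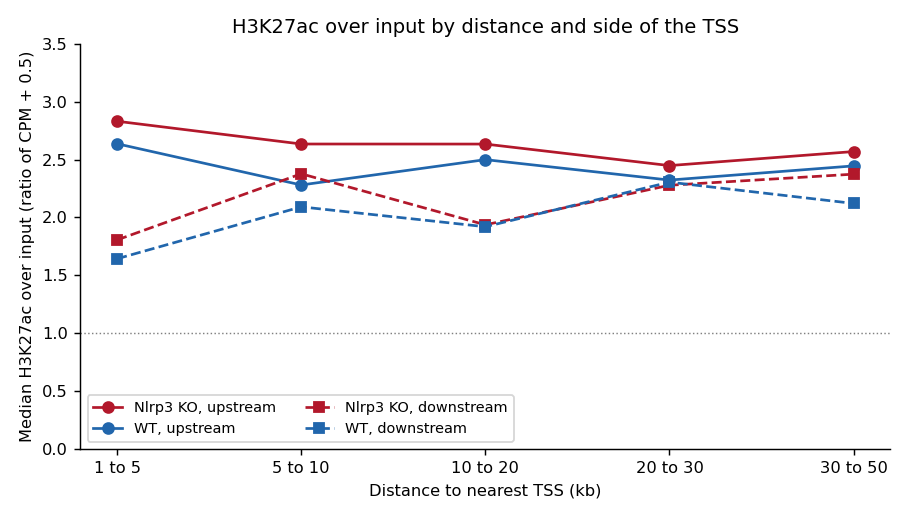
Median H3K27ac over input (ratio of mean CPM plus 0.5, vertical axis) in 5 classes of distance to the nearest TSS in kb (horizontal axis) for windows upstream (solid lines, circles) and downstream (dashed lines, squares) of it; red is Nlrp3 KO and blue is WT. Upstream windows at 1 to 5 kb stand highest (2.83 in the KO and 2.64 in the WT) and the 122 downstream windows at 1 to 5 kb stand lowest (1.81 in the KO and 1.64 in the WT).

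Set against other classes of windows found in both lists, the members were similar to intergenic windows farther away and lower than intronic and promoter windows. Their median level was 2.34 ± 0.0900 CPM over the 6 H3K27ac libraries, against 2.49 ± 0.176 CPM for 3016 intergenic windows beyond 50 kb (SD, n = 6; exact two-sided sign-flip test, p = 0.125). That comparison turned with the summary used: the mean level of members was 1.07 times that of the farther windows, in the same direction in all 6 libraries (same exact test, p = 0.031). The 17162 intronic windows outside repeats and CpG islands had a median of 3.68 ± 0.283 CPM, so members stood at 0.638 times their level. The 11386 promoter windows had a median of 6.62 ± 0.465 CPM, so members stood at 0.354 times their level. Both differences had p = 0.031 (exact sign-flip test; adjusted over 3 comparisons p = 0.0469). As above, the sign-flip p measures agreement between libraries, not the spread between windows. By mean level the members stood at 0.873 times the intronic and 0.640 times the promoter windows. The same ratios of mean levels in input were 0.993 for farther intergenic, 1.05 for intronic and 1.10 for promoter windows.

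The level of a gene's strongest member ran with the level of its strongest promoter window. Over 2597 genes with both, the median of the highest member ratio over input was 1.63, 2.62, 4.17 and 6.27 in the KO over 4 equal classes of genes from the lowest to the highest promoter ratio, and 1.68, 2.57, 3.64 and 5.50 in the WT. Spearman's rho across genes was 0.303 in the KO and 0.290 in the WT. It is a description across genes that share the same libraries, and genes are not independent replicates.

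Loss of Nlrp3 went with few detectable differences in these windows, which were limited to sites listed in both genotypes. Of the 8819, 4702 had enough tags for the test of KO against WT, which was fitted over 40370 windows of all classes. The quasi-likelihood test of edgeR called 2 members at an adjusted p under 0.05, both lower in the KO, beside 0.0595% of all windows called, 0.0347% called lower and 0.0248% called higher. Called higher were 0 members. At an unadjusted p under 0.05 there were 252 members (5.36%), beside 4.69% of all windows. Of these 97 were higher in the KO, or 2.06% of members tested beside 2.19% of all windows, and 155 were lower in the KO, or 3.30% beside 2.5% of all windows. The split moved with single libraries: without WT replicate 1 it was 137 higher and 132 lower. Without WT replicate 3 it was 123 higher and 117 lower. The share higher was then 50.9% and 51.25% of such members, beside 54.4% and 54.5% of all such windows. In the main fit that share was 38.5%, beside 46.7% of all such windows. In the other alternatives more members were lower than higher, for example 94 higher and 180 lower without KO replicate 1. The 3 KO and 3 WT libraries did not overlap in 499 members (10.6%), beside 10.1% of all windows. The KO libraries lay above in 244 members, beside 5.19% of all windows, and below in 255, beside 4.91% of all windows.

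The median log2 fold change of the 4702 members was -0.00088, against 0.0042 for all windows tested, and the middle 50% of members lay between -0.32 and 0.31. The median SE of a member's log2 fold change was 0.47. A log2 fold change of at least 1 in size was fitted in 372 members (7.91%), beside 7.56% of all windows tested, and 2 of these members were called. DESeq2 called 13 members among 6004 with an adjusted p, beside 0.14% of all windows, and 3 of the 13 were higher in the KO and 10 lower. Among the 13 were windows named below as uncalled by edgeR, near Ulk4, E330021D16Rik, Per1, 4933433H22Rik, Gm20110 and Myo1g. Their DESeq2 adjusted p ran from 0.00325 at Ulk4 to 0.0309 at Myo1g. In pooled cells, fewer cells with the mark and less of the mark per cell cannot be told apart.

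**Figure D4:**
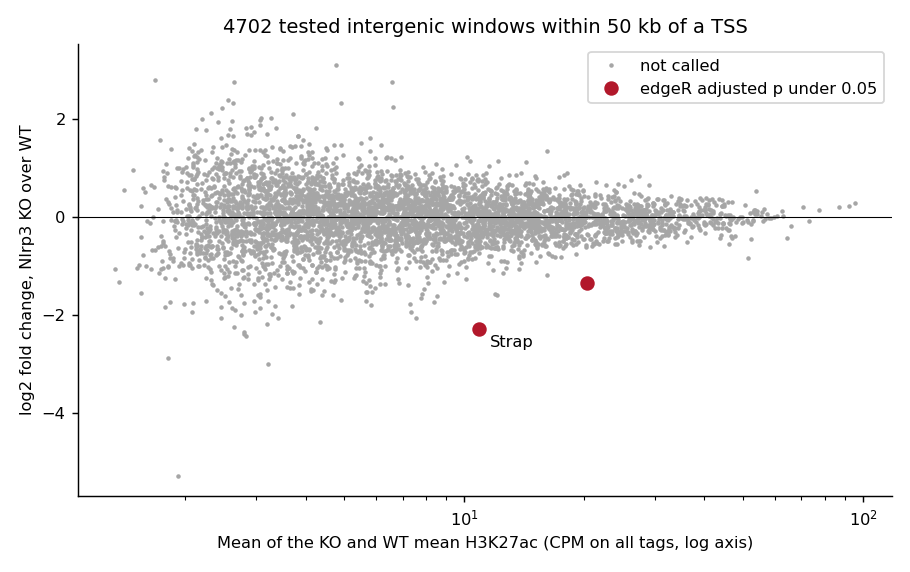
Log2 fold change of H3K27ac in Nlrp3 KO over WT (vertical axis) against the mean of the KO and WT levels in CPM (horizontal log axis) for the 4702 tested windows; grey points were not called and red points have an edgeR adjusted p under 0.05. The 2 called windows, among them that nearest Strap, lie below 0, and the cloud is centred on 0 and narrows as levels increase.

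The window with the smallest adjusted p lay 38088 bp upstream of Strap (chr6:137696494-137697494), a gene whose protein binds TGF-beta receptors and the SMN complex. It held 31, 15 and 7 tags in the KO H3K27ac libraries, against 93, 74 and 53 tags in the WT H3K27ac libraries. All 3 KO libraries lay below all 3 WT libraries, and the log2 fold change was -2.29, with SE 0.44 (edgeR adjusted p = 0.0373). Input held 4, 0 and 5 tags in the KO and 5, 10 and 0 tags in the WT, and the ratio over input was 3.92 in the KO and 12.1 in the WT. A member that overlaps it, at chr6:137696087-137697087, held 27, 13 and 7 tags in the KO, against 63, 40 and 34 tags in the WT. Its groups did not overlap either, with a log2 fold change of -1.78 (edgeR adjusted p = 0.510). The Strap promoter window held 83, 66 and 99 tags in the KO, against 53, 92 and 42 tags in the WT, with overlapping groups and a log2 fold change of 0.21.

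The call at Strap changed with the libraries used. Leaving out each library in turn kept the log2 fold change between -2.98 and -1.95 and kept the call in 2 of 6 fits. The call was lost without KO replicate 2 (adjusted p = 0.313), KO replicate 3 (0.209), WT replicate 1 (0.451) and WT replicate 2 (0.287), and it stood without KO replicate 1 (0.0215) and WT replicate 3 (0.00992). Within 1 Mb there were 34 other tested windows, of which 17 reached an unadjusted p under 0.05, beside 4.69% of all windows. Among them 3 were called, all intronic windows nearest Eps8 that were higher in the KO. The median log2 fold change of the 34 was 0.42, opposite in sign to the Strap window. Their summed input level was 29.6 ± 2.02 CPM in the KO and 26.9 ± 3.39 CPM in the WT (SD, n = 3 each).

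**Figure D5:**
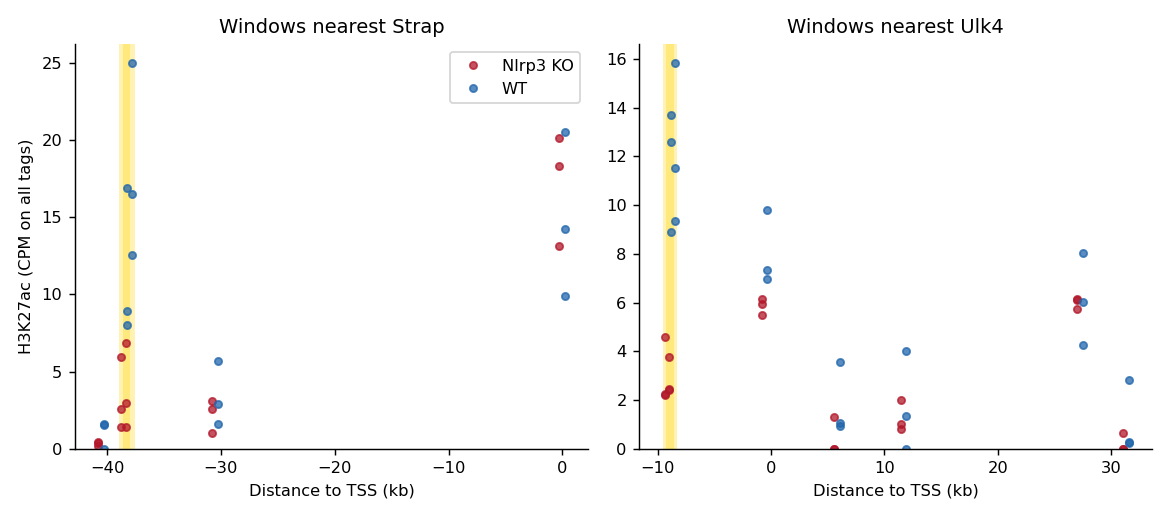
H3K27ac level (CPM, vertical axis) in each library for all windows nearest Strap and Ulk4 against distance to the TSS in kb (horizontal axis); red points are Nlrp3 KO and blue points WT, drawn slightly left and right of the window's position, and yellow bands are the intergenic windows described here. The KO points lie below the WT points in the bands 38 kb upstream of Strap and 9 kb upstream of Ulk4. They mix with the WT points at the Strap promoter. At the Ulk4 promoter they also lie below the WT points, with a log2 fold change of -0.46 that was not called.

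Among uncalled members of at least median abundance whose groups did not overlap, the smallest p with a lower level in the KO belonged to a window 8760 bp upstream of Ulk4 (chr9:121285432-121286432), a catalytically inactive member of the ULK kinase family. It held 11, 19 and 12 tags in the KO, against 43, 42 and 67 tags in the WT. The groups did not overlap, with a log2 fold change of -2.07 and SE 0.45 (edgeR adjusted p = 0.116). A window 3016 bp upstream of Per1, a repressor of the circadian clock, held 191, 218 and 125 tags in the KO, against 223, 288 and 311 tags in the WT. Its log2 fold change was -0.85 (SE 0.19, adjusted p = 0.170), while the member 3932 bp upstream held 172, 208 and 159 tags in the KO, against 153, 154 and 113 tags in the WT. The log2 fold change of the second was 0.13. An intergenic window that overlaps the first, outside the set, was at -0.66, the members 1818 and 1261 bp upstream were at -0.23 and -0.13, and the 3 promoter windows lay between -0.23 and -0.06, none of them called.

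Other windows in this group lay near Myo1g, an unconventional myosin of blood cells, and near 4933433H22Rik, Gm20110, Ncmap, Nufip1 and Stoml1. The Myo1g window, 1940 bp upstream, held 21, 26 and 14 tags in the KO, against 61, 50 and 47 tags in the WT, a log2 fold change of -1.61. Log2 fold changes of the other 5 ran from -1.73 to -1.19, and adjusted p of these 6 windows ran from 0.316 to 0.547. The Myo1g promoter window was at 0.63, while the tested intronic and gene-end windows nearest Myo1g were at -0.40 and -0.89. A window that overlaps the 4933433H22Rik window was at -0.62, and the member 31542 bp downstream of that TSS was at 0.92. None of these was called. The Nufip1 and Stoml1 windows leaned on WT replicate 3: Nufip1 held 18, 25 and 13 tags in the KO, against 33, 29 and 99 tags in the WT.

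On the higher side, among uncalled members under the same limits, the smallest p belonged to a window 48955 bp upstream of E330021D16Rik (chr6:136464024-136465024). It held 107, 125 and 105 tags in the KO, against 28, 50 and 36 tags in the WT. The groups were well separated, with a log2 fold change of 1.35 and SE 0.30 (edgeR adjusted p = 0.130), and 2 intergenic windows that overlap or adjoin it had values of 1.28 and 1.26. A window 8268 bp upstream of Osbp, an oxysterol-binding lipid transfer protein, held 192, 158 and 155 tags in the KO, against 92, 96 and 54 tags in the WT, a log2 fold change of 0.84 (adjusted p = 0.629). A window 46261 bp downstream of the TSS of Nnmt, which methylates nicotinamide, held 97, 112 and 132 tags in the KO, against 46, 58 and 55 tags in the WT, a log2 fold change of 0.90 (adjusted p = 0.684). The promoter of Osbp did not share the direction, with a log2 fold change of -0.45.

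A window 4847 bp downstream of the TSS of Tsc22d3, the glucocorticoid-induced leucine zipper gene on the X chromosome, held 50, 99 and 59 tags in the KO, against 24, 29 and 23 tags in the WT. Its log2 fold change was 1.21 (SE 0.38, edgeR adjusted p = 0.687) and stayed between 0.96 and 1.40 when each library was left out, including the WT replicate without Y-linked tags. The tested Tsc22d3 promoter windows did not share the direction, with log2 fold changes of -0.17 and -0.12. The 69 tested members on the X chromosome had a median of -0.09 on the log2 scale, and 0.06 without that replicate. The remaining windows higher in the KO by the same rule lay near 2010010A06Rik, Olfr111, Sit1, Gng2, A330009N23Rik and Afm. Their log2 fold changes ran from 0.74 to 1.15 and their adjusted p from 0.500 to 0.904.

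Some members with larger folds and few tags in 1 genotype were not called, and they were chosen for naming after their values were seen. A window 10343 bp downstream of the TSS of Itpripl2 (chr7:118481132-118482132) held 35, 41 and 48 tags in the KO, against 8, 2 and 2 tags in the WT, a log2 fold change of 3.11 and SE 0.66 (edgeR adjusted p = 0.0964; DESeq2 adjusted p = 0.00259). A window 37936 bp downstream of the TSS of Camk2n1, an inhibitor of the kinase CaMKII, held 64, 51 and 49 tags in the KO, against 19, 1 and 0 tags in the WT. All its KO libraries lay above all WT libraries, with a log2 fold change of 2.75 (adjusted p = 0.367), and it was the only member called when WT replicate 1 was left out (adjusted p = 0.00267). In that fit its log2 fold change was 6.31, against 1 and 0 tags in the remaining WT libraries. A window 18987 bp upstream of Mpc1, part of the carrier that brings pyruvate into mitochondria, held 4, 3 and 3 tags in the KO, against 19, 26 and 27 tags in the WT, a log2 fold change of -3.01 (edgeR adjusted p = 0.367; DESeq2 adjusted p = 0.0230). The lowest value of all tested members, -5.27 near Cbx7, rested on 1, 0 and 0 tags in the KO, against 10, 10 and 27 tags in the WT (adjusted p = 0.367).

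In none of the 17 gene lists did edgeR call a member; the neuron list had no window tested, and DESeq2 called the Mpc1 window of the TCA cycle and pyruvate list. The counts that follow stand beside 4.69% of all windows and 5.36% of all members tested at an unadjusted p under 0.05. Of 67 tested windows of homeostatic microglia genes, 4 had an unadjusted p under 0.05, 2 in each direction, and the median log2 fold change was 0.05. Immediate early genes had 92 tested windows with 5 at that level, 1 higher and 4 lower, and a median of -0.02. Genes of NF-kB and cytokines had 57 tested windows with 3, all lower, led by a window 1576 bp upstream of Bcl3, an atypical inhibitor of NF-kB, with a log2 fold change of -1.71 and SE 0.51 (edgeR adjusted p = 0.599). Inflammasome and interleukin-1 genes had 19 tested windows with 0 at that level, the smallest p being that of a window 22604 bp upstream of Il1b (log2 fold change 1.64, SE 0.95, adjusted p = 0.998). Genes of glutamine and glutamate had 11 tested windows with 3, of which 2 were higher and 1 lower, led by a window 11764 bp upstream of Slc1a3, a glutamate transporter of astrocytes (log2 fold change 1.81, SE 0.67, adjusted p = 0.963). Of the TCA cycle and pyruvate windows, 6 were tested and the Mpc1 window was the only one at that level.

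Tags were also summed over the members of each nearest gene. Of 4565 such sums, 2534 were tested beside the sums of other windows, 14460 sums in all, and 3 member sums were called, beside 0.173% of all sums. All 3 were lower in the KO. At an unadjusted p under 0.05 there were 150 member sums (5.92%), beside 5.9% of all sums. The 2 members of Ulk4, which overlap, held 21, 42 and 23 tags in the KO, against 90, 82 and 125 tags in the WT (log2 fold change -2.01, SE 0.36, edgeR adjusted p = 0.00483). The groups did not overlap, while the sum of the other Ulk4 windows had a log2 fold change of -0.46 (adjusted p = 0.933). The Ulk4 call was lost without KO replicate 1 (adjusted p = 0.0897) and WT replicate 3 (0.0524). Tags in the stretch that the Ulk4 windows share can enter this sum from both, and no sum without the overlap was fitted. The adjusted p of the sum may therefore be too small and is not separate support beside the single windows.

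The 2 overlapping members of Strap held 58, 28 and 14 tags in the KO, against 156, 114 and 87 tags in the WT (log2 fold change -2.08, SE 0.39, adjusted p = 0.00823). The other Strap windows had a log2 fold change of 0.03. That call was lost without KO replicate 2 (adjusted p = 0.103), KO replicate 3 (0.0644) and WT replicate 1 (0.144). Shared tags can be counted in both windows here too, so the sum is not separate support for the Strap window.

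Other sums did not pass the test. The 5 members of Fam46a held 77, 75 and 66 tags in the KO, against 109, 140 and 168 tags in the WT (log2 fold change -1.14, SE 0.27, adjusted p = 0.0941). The 5 members of Jmjd1c, a member of the JmjC family of histone demethylases, held 386, 543 and 475 tags in the KO, against 267, 306 and 232 tags in the WT (log2 fold change 0.58, SE 0.17, adjusted p = 0.339). The KO libraries lay above the WT libraries at Jmjd1c and below them at Fam46a. Olfr111 had 4 members with a summed log2 fold change of 0.45 (adjusted p = 0.495), while the sum of its other windows was called higher in the KO (1.40, adjusted p = 0.00401). The other sums named by rule were those of Nufip1, Myo1g, Ncmap and Cep97, lower in the KO with log2 fold changes of -1.80 to -1.48, and of Pisd-ps3 and Osbp, at 0.29 and 0.84. Their adjusted p ran from 0.228 to 0.495.

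The genes with the most members, after Pisd-ps3, were 4933433H22Rik and A630001O12Rik with 18 each, Fos with 16 and Cxxc5 with 15. The 16 members of Fos, an AP-1 subunit, held 481, 529 and 490 tags in the KO, against 411, 509 and 432 tags in the WT. The groups overlapped, with a log2 fold change of -0.07. The 18 members of A630001O12Rik held 1759, 1943 and 1224 tags in the KO, against 1095, 1113 and 1133 tags in the WT (log2 fold change 0.33, SE 0.11, adjusted p = 0.490). Most genes had far fewer: 2611 had a single member and 28 had at least 10.

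Nlrp3 itself had 3 members, at 16138, 14670 and 3029 bp upstream of its TSS. The member at 14670 bp held 46, 38 and 18 tags in the KO, against 29, 53 and 45 tags in the WT, and the member at 3029 bp held 32, 19 and 27 tags in the KO, against 36, 37 and 28 tags in the WT. Both had overlapping groups, with log2 fold changes of -0.54 and -0.58 (SE 0.41 and 0.45, edgeR adjusted p = 0.998 each). The farthest held 15, 1 and 10 tags in the KO, against 8, 8 and 6 tags in the WT, too few for the test. The promoter windows of Nlrp3, outside the set, had log2 fold changes of -2.31 (edgeR adjusted p = 0.00338) and -5.19 (edgeR adjusted p = 4.88e-06). Input in the first held 2, 1 and 0 tags in the KO, against 4, 9 and 3 tags in the WT. Input in the second held 0, 0 and 0 tags in the KO, against 10, 5 and 3 tags in the WT. The part of input in these 2 fold changes was not tested.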

How the data were processed

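The counts are raw tag numbers per window of 1000 bp, with the total tags of each library in the column names, as deposited by the authors in a HOMER annotation table on mm10, per the file headers. HOMER, DESeq2 and mm10 are named per the submitters' processing notes. The aligner, the site caller and their settings were not given in the sources used here. Each window's type, nearest gene and distance are the authors' annotation. KO and WT H3K27ac were compared with edgeR 4.0.16 (R 4.3.3; TMM scaling, filterByExpr, quasi-likelihood test, Benjamini-Hochberg at 0.05 over all windows tested); H3K27ac and input were compared with total tags as library size. SE was taken from the fold change and the F statistic. Ratios over input used a pseudocount of 0.5 CPM. Exact permutation and sign-flip tests used scipy 1.17.1. DESeq2 1.42.0, total-tag scaling, no filter, no overlapping windows, replicate block and leaving out libraries were alternatives. The scripts were tested on simulated data.

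The members, the gene lists and the comparisons were chosen with earlier results of these data known, and the 4 comparisons within the members after the data were seen. Windows were named by rule: every call; per direction up to 10 uncalled members with the smallest p, non-overlapping groups and at least median abundance; the 10 members of highest H3K27ac; the strongest in each list; the called or top 5 member sums per direction; and the 5 genes with most members. No libraries were near-identical: chi-square per degree of freedom between libraries of a group was 3.63 to 5.92 for H3K27ac and 1.35 to 1.83 for input. Intervals and floors cover counting error only. Sequences at window centres were not analysed here. Some windows and sums that the rule names are not reported here.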

Additional observations from a re-analysis of the deposited data

How the results depend on the processing

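The number of members called between KO and WT, 2 in the main analysis, was 13 with DESeq2 and 10 with no filter. It was 0 without overlapping windows, 0 with total-tag scaling, and 0 to 1 when each library was left out. Without WT replicate 1 the 1 call was higher in the KO and not shared. The cause of these changes in number was not tested. Of all windows, 0.0595% were called in the main analysis and 0.14% with DESeq2. For the other alternatives, here and for the sums below, the share over all features is not given. Those counts therefore do not set the members apart from other windows. With the replicate block the number of members called was 1. Same-numbered KO and WT libraries did not deviate together (r from -0.00079 to 0.0036, 0 of 3 best with its own number). By this measure, same-numbered H3K27ac and input libraries were near 0 too (r from 0.0031 to 0.010 in the KO and 0.0073 to 0.015 in the WT). It therefore cannot decide whether the numbers pair KO and WT libraries. With members taken from either site list, 3 were called among 11747 windows, a total that includes windows with too few tags for the test. Called member sums, 3 in the main analysis, were 5 with no filter and 1 to 2 when each library was left out. Members higher than input under TMM were 398 in the KO and 344 in the WT, against 3563 and 3411 by total tags after the filter; TMM centres the windows by construction. The KO minus WT difference in the input share was -0.770 percentage points of tags in windows, against -0.0952 of all tags. The log2 ratio of members to farther intergenic windows was 0.091 by mean level, against -0.09 by median. With a pseudocount of 0.1 CPM the median over input was 3.39 in the KO and 3.03 in the WT, and with 1 CPM it was 2.04 in the KO and 1.93 in the WT. Member sums near 0 changed sign when libraries were left out, with a range of -0.11 to 0.046 for 4933433H22Rik and -0.13 to 0.018 for Fos. Of single named windows, 210 of 235 alternatives kept direction and side of the threshold, 12 gained a call and 13 lost one. Depth limits all of this: a member held about 10 tags per H3K27ac library.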
